A study of Mus musculus with 18 samples.

Results

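The comparison described here is that of epiblast-like cells (EpiLCs) lacking all 3 TET enzymes (TKO) with wild-type EpiLCs, before the cells were aggregated for germ cell differentiation. It was made on 4 of the 18 RNA-seq libraries of the series, 2 of wild-type and 2 of TKO EpiLCs, chosen by the labels of their columns. All cells derive from E14Tg2a, an established male mouse embryonic stem cell (ESC) line, and the wild-type libraries are of this line. The TKO cells are a Tet1-/-, Tet2-/-, Tet3-/- line that is 1 clone, made step by step with CRISPR/Cas9 by cutting out the open reading frame of each gene between its start and stop codons. Both genotypes were maintained in 2i/LIF and then moved for about 2 days to activin and FGF, which gives EpiLCs. At this time, day 0 of germ cell differentiation, neither genotype had received the cytokines that promote primordial germ cell (PGC) fate. Since the TKO EpiLCs are of 1 clone, the loss of TET enzymes and any other difference of that clone cannot be told apart.

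TET enzymes oxidise 5-methylcytosine in DNA, the first step of active demethylation, and act mostly at CpG dinucleotides. EpiLCs model the formative pluripotency of the early post-implantation epiblast. On the way from naive ESCs they switch off transcription factors such as ESRRB and TFCP2L1, keep OCT4, switch on OTX2 and POU3F1, and gain DNA methylation through DNMT3A and DNMT3B.

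Counts are fragments per gene, and normalised counts are those counts divided by DESeq2 size factors. Total counts were 16674967 and 41257861 in wild-type and 18917787 and 18665577 in TKO EpiLCs, and the ribosomal transcript Rn45s took from 33.1% to 47.6% of them, more in each wild-type library than in either TKO library. With Rn45s left out of the normalisation factors 383 genes were called, as with it, and no other test of its part was made. Of 25239 genes, 16582 passed the filter on low counts and were tested with edgeR's quasi-likelihood test, which is the source of every adjusted p below. Replicates 1 and 2 of the TKO EpiLCs differed more from each other (Euclidean distance over the log2 levels of all tested genes, 88.3) than those of wild-type EpiLCs (65.6). TKO replicate 2 stood apart in naive pluripotency genes, and each of the 19 genes on that list was higher in it than in TKO replicate 1. Results are therefore also given without single libraries.

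A gene was called where its log2 fold change was beyond 2 in either direction and its adjusted p was below 0.05. In TKO EpiLCs 284 genes were higher and 99 lower, which is 2.31% of the genes tested. Without the limit on fold change, 1255 genes (7.57%) were higher and 528 (3.18%) lower. The median log2 fold change of all tested genes was 0.04. The gene lists described below count members by adjusted p alone, and their counts and medians are read against these shares and this median. Where a library was left out, a gene is said to hold, or a call to be kept or lost, by its adjusted p alone. Genotypes were 105.7 to 117.3 apart in Euclidean distance, further than either pair of replicates. The first principal component of the 4 libraries (61.7% of variance) separated the genotypes, and the second (24.9%) separated the TKO replicates. Many of the changes were in sparse transcripts, since 148 of the 284 genes called higher had a mean below 50 normalised counts in TKO EpiLCs. The number called fell to 273 without TKO replicate 2, to 168 without wild-type replicate 2 and to 205 without wild-type replicate 1.

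**Figure D1:**
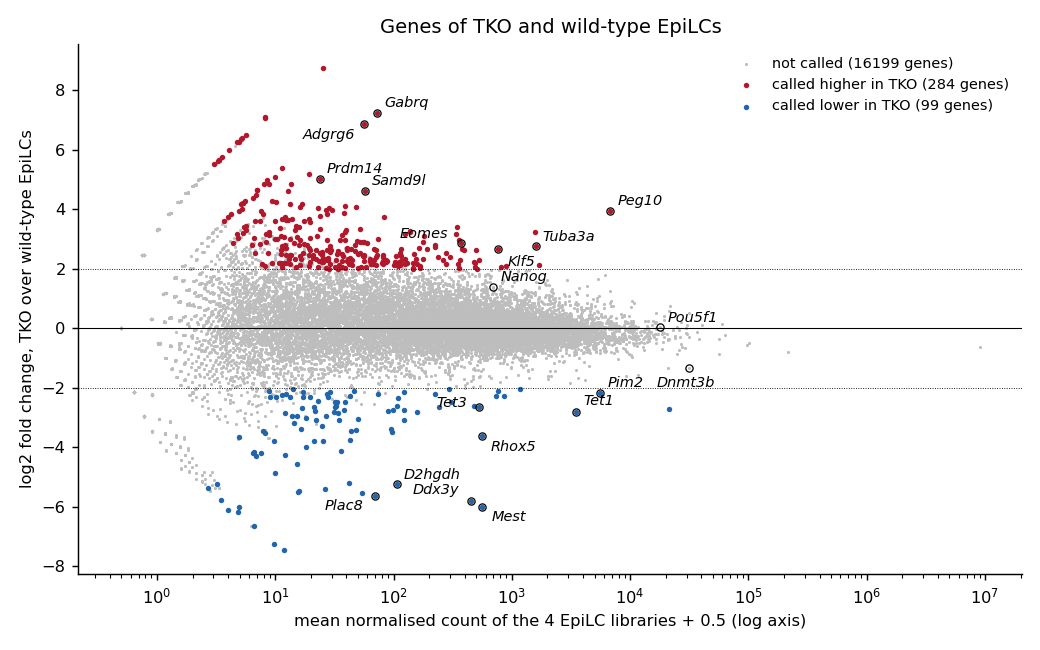
Each point is 1 of 16582 tested genes, plotted by its mean normalised count over the 4 EpiLC libraries (x axis, log scale) and its fitted log2 fold change in TKO over wild-type EpiLCs (y axis). The 284 genes called higher are red, the 99 called lower are blue, and dotted lines mark a log2 fold change of 2 in either direction. Oct4 (Pou5f1) lies at 0.04 while Mest and Ddx3y lie near −6.

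Transcripts of the deleted genes were examined first. Tet1, the main TET enzyme of pluripotent cells, had normalised counts of 6227 and 6036 in wild-type and 737 and 967 in TKO EpiLCs in replicates 1 and 2 (log2 fold change −2.82, SE 0.33, adjusted p = 0.000216). Tet3 had 821 and 1019 in wild-type and 131 and 159 in TKO EpiLCs (log2 fold change −2.64, SE 0.32, adjusted p = 0.00022). For these genes TKO libraries were far below both wild-type libraries, and both calls held without each of the 4 libraries in turn. Tet2, a low transcript here, had 186 and 125 in wild-type and 31.7 and 102 in TKO EpiLCs (log2 fold change −1.17, SE 0.49, adjusted p = 0.141), with TKO replicate 2 close to wild-type replicate 2. Its log2 fold change was −2.24 (adjusted p = 0.0404) without TKO replicate 2 and −0.54 (adjusted p = 0.566) without TKO replicate 1. Counts are summed over all exons of a gene, so that reads from exon parts outside the excised reading frames, UTRs included, still count towards a Tet gene.

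Among 20 tested genes of the DNA methylation machinery 2 were higher and 2 lower by adjusted p, with a median of −0.16, or 0.07 without TKO replicate 1 and −0.46 without TKO replicate 2. Dnmt3b, a de novo methyltransferase and a hallmark of formative cells, had 42663 and 48315 in wild-type and 18018 and 16870.4 in TKO EpiLCs (log2 fold change −1.35, SE 0.27, adjusted p = 0.00603). Both TKO libraries were below both wild-type libraries. Trim28, which recruits repressive chromatin to imprints and retrotransposons, also fell (log2 fold change −0.74, SE 0.19, adjusted p = 0.0254). Dnmt3a, the other de novo enzyme, had 18147 and 14657 in wild-type and 6223 and 13263 in TKO EpiLCs (log2 fold change −0.72, SE 0.28, adjusted p = 0.113), with TKO replicate 2 close to wild-type. Its log2 fold change was −1.37 without TKO replicate 2 and −0.27 without TKO replicate 1. The maintenance genes Dnmt1 and Uhrf1 had log2 fold changes of −0.17 (adjusted p = 0.47) and −0.42 (adjusted p = 0.261), and the cofactor Dnmt3l 0.44 (adjusted p = 0.486). Zbtb38, a reader of methylated DNA, and Gadd45a, a stress gene linked to demethylation, were higher by log2 0.89 (adjusted p = 0.0248) and 1.14 (adjusted p = 0.046). None of these 4 calls held without each library in turn. Without TKO replicate 2 the values of Dnmt3b, Trim28, Zbtb38 and Gadd45a were −1.31 (adjusted p = 0.051), −0.73 (adjusted p = 0.116), 0.82 (adjusted p = 0.106) and 0.39 (adjusted p = 0.549). Calls were also lost without wild-type replicate 2 for all of these 4 genes, without wild-type replicate 1 for Zbtb38 and Trim28, and without TKO replicate 1 for Trim28.

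The deepest losses were in genes that wild-type EpiLCs transcribe and TKO EpiLCs nearly do not. Of the genes called, 183 had a mean of at least 50 normalised counts in the higher group and no overlap between groups, and the 15 lowest and 15 highest of them are described here. Of all 383 genes called 380 had no overlap between groups, so that a lack of overlap does not set a gene apart. Mest, an imprinted gene expressed from the paternal allele (chr6:30733506-30748466, mm10), fell furthest, from 1249.8 and 959 in wild-type to 22.8 and 9.90 in TKO EpiLCs (log2 fold change −6.01, SE 0.67, adjusted p = 0.000161). Ddx3y, an RNA helicase on the Y chromosome (chrY:1260715-1286628), had 789 and 972 in wild-type and 9.92 and 20.9 in TKO EpiLCs (log2 fold change −5.82, SE 0.46, adjusted p = 8.74e-06). Eif2s3y and Uty, which lie beside it on the Y chromosome, had 684 and 908 and 377 and 465 normalised counts in TKO and 932 and 1196 and 414 and 480.3 in wild-type EpiLCs, with log2 fold changes of −0.39 (adjusted p = 0.335) and −0.06 (adjusted p = 0.916). These 2 were singled out after their values were seen. Of 8 tested Y-linked genes Ddx3y was the single one with an adjusted p below 0.05, and 1 had a log2 fold change above 0. The median of the 8 was −0.55, or −2.81 without TKO replicate 2 and −0.06 without TKO replicate 1.

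D2hgdh encodes the enzyme that oxidises D-2-hydroxyglutarate, a metabolite known to inhibit TET and related dioxygenases. It had 189.6 and 223 in wild-type and 5.95 and 4.40 in TKO EpiLCs (log2 fold change −5.25, SE 0.41, adjusted p = 8.74e-06). Mgmt, the methyltransferase that repairs O6-methylguanine, had 106 and 103 in wild-type and 0.992 and 3.30 in TKO EpiLCs (log2 fold change −5.53, SE 0.83, adjusted p = 0.0011). For both genes the TKO libraries were far below the wild-type libraries. Plac8, first described in the placenta, had 137 and 137 in wild-type and 3.97 and 1.10 in TKO EpiLCs (log2 fold change −5.63, SE 0.61, adjusted p = 0.000128). Dcn, the proteoglycan decorin, had 81.9 and 81.7 in wild-type and 3.97 and 0 in TKO EpiLCs (log2 fold change −5.21, SE 0.84, adjusted p = 0.00215). Rhox5, an X-linked homeobox gene known to be controlled by DNA methylation, had 904 and 1159.6 in wild-type and 84.3 and 79.2 in TKO EpiLCs (log2 fold change −3.63, SE 0.31, adjusted p = 2.64e-05).

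The other 8 of these 15 genes fell by log2 values between −5.39 and −3.09. They include genes of the testis, Ldhc (a sperm lactate dehydrogenase, log2 −3.75), Fkbp6 (a cochaperone of piRNA formation, log2 −3.42) and Usp26 (a ubiquitin protease, log2 −3.50). Gm21761 had 54.6 and 46.1 in wild-type and 0.992 and 1.10 in TKO EpiLCs, where 2 counts in TKO made it lower by 46.3-fold (95% counting interval 12.5 to 387, adjusted p = 0.00112). The rest were Ephx3, an epoxide hydrolase (log2 −4.12), the Eph receptor Ephb1 (log2 −3.47), the GTPase Irgm1 (log2 −3.39) and the glutathione peroxidase Gpx2 (log2 −3.09). The adjusted p rose above 0.05 for Irgm1 without TKO replicate 2, for Ephb1 without TKO replicate 2 or wild-type replicate 1, and for Gpx2 without any library but wild-type replicate 2. For the other 12 genes the call held without each library in turn.

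Among the 15 genes that rose most, Gabrq, a GABA-A receptor subunit on the X chromosome (chrX:72825163-72842607), had 1.61 and 0.556 in wild-type and 159 and 126 in TKO EpiLCs. From 2 counts in both wild-type libraries together this is 174-fold (95% counting interval 47.6 to 1441, adjusted p = 3.41e-05). Adgrg6, an adhesion G protein-coupled receptor, had 3.21 and 0 in wild-type and 86.3 and 135 in TKO EpiLCs, or 133-fold (95% counting interval 36.3 to 1102, adjusted p = 0.00104) from 2 counts in wild-type. Samd9l, an interferon-responsive restriction factor, had 8.03 and 2.78 in wild-type and 98.2 and 118 in TKO EpiLCs (log2 fold change 4.62, SE 0.54, adjusted p = 0.000215). These 3 genes went from near background in wild-type to clear expression in both TKO libraries. Peg10, an imprinted gene of retrotransposon origin needed for the placenta, was already transcribed in wild-type EpiLCs and had 1116 and 578 in wild-type and 12011 and 13469.5 in TKO EpiLCs (log2 fold change 3.95, SE 0.48, adjusted p = 0.000235). Ppp3cc, a calcineurin subunit, had 6.43 and 11.1 in wild-type and 86.3 and 104 in TKO EpiLCs (log2 fold change 3.35, SE 0.45, adjusted p = 0.000495).

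Other genes of the cell surface in this set were the interleukin-1 receptor Il1r1 (log2 3.98), the scavenger receptor Scara3 (log2 4.06) and the Notch ligand Dll4 (log2 3.30). The transcription factors of development were Gata4 (log2 4.10), Gsx1 (log2 4.08) and Tbx15 (log2 3.85). The heat shock gene Hspa1a had 11.2 and 11.7 in wild-type and 223 and 83.6 in TKO EpiLCs (log2 fold change 3.75, SE 0.64, adjusted p = 0.00212), with TKO replicate 1 the higher. The peptidase gene Mme had 53.01 and 66.2 in wild-type and 334 and 919 in TKO EpiLCs (log2 fold change 3.39, SE 0.63, adjusted p = 0.00393), with TKO replicate 2 the higher. H2-Q5, of the major histocompatibility complex, and Ccdc141 rose by log2 3.89 (adjusted p = 0.00286) and 3.27 (adjusted p = 0.00131). The call was lost without each single library for Dll4, without wild-type replicate 2 for Gsx1, Mme and H2-Q5, without wild-type replicate 1 for Mme, and without TKO replicate 1 for Gsx1. For the other 11 genes it held without each library in turn.

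Because TET enzymes act at CpG sites, CpG content was counted in the promoter windows of RefSeq (GRCm38.p6, 250 bases before to 50 after a transcript start), of which 12819 tested genes had at least 1 and the 5′-most was used. The median number of CpGs was 14 in 204 genes called higher (25th to 75th percentile, 7 to 24), 13 in 77 genes called lower (6 to 21) and 19 in all 12819 (10 to 28). Windows with 15 or more CpGs made up 48.5% of the genes called higher, 42.9% of those called lower and 64.7% of all. Both sets of called genes thus held fewer CpG-rich windows than the tested genes as a whole, and genes were not matched for expression level. Promoters of 6 genes show the range among the genes with the largest changes, chosen after their values were seen from those with a single window. They are the 250 bases before the start in RefSeq's promoter table, 5′ to 3′ in the direction of the gene, with each CG dinucleotide in capitals. For D2hgdh and Adgrg6 that start lies inside the span of the gene, so that the stretch shown is within the annotated gene, and for Ddx3y and Gabrq the last bases of the stretch overlap it. Ddx3y, D2hgdh and Rhox5 fell, and Gabrq, Adgrg6 and Samd9l rose. Their positions are chrY:1286614-1286863 (minus strand) for Ddx3y, chr1:93824990-93825239 (plus strand) for D2hgdh, chrX:37754358-37754607 (plus strand) for Rhox5, chrX:72824928-72825177 (plus strand) for Gabrq, chr10:14545037-14545286 (minus strand) for Adgrg6 and chr6:3399572-3399821 (minus strand) for Samd9l.
Ddx3y: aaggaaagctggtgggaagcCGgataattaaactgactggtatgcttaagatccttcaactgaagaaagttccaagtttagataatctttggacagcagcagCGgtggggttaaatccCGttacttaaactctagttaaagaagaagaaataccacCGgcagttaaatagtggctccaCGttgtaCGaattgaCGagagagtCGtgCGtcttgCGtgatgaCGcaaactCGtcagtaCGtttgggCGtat
D2hgdh: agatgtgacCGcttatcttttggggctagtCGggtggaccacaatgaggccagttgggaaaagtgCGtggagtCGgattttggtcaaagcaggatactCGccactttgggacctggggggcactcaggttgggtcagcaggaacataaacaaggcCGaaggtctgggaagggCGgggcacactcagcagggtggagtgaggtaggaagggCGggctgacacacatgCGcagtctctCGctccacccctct
Rhox5: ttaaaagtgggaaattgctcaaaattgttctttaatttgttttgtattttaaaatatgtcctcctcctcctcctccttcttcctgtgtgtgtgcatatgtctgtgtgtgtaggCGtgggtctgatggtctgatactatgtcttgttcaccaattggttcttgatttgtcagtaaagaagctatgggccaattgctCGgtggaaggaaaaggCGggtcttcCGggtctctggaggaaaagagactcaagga
Gabrq: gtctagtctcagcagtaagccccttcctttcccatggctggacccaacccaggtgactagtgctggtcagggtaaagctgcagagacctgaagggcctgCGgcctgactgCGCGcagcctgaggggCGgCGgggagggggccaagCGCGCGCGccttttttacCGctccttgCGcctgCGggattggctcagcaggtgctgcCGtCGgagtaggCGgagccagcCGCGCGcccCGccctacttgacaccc
Adgrg6: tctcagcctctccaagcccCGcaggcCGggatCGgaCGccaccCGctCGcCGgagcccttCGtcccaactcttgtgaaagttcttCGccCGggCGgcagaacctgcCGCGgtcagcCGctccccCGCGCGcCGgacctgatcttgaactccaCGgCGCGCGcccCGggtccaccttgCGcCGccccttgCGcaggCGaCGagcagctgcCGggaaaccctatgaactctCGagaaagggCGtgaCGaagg
Samd9l: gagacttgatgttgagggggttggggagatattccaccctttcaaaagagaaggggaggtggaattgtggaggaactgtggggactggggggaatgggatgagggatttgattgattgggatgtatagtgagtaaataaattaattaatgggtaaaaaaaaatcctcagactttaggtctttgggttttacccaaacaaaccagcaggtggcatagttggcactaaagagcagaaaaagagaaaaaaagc
The genes that fell have 14, 10 and 4 CpGs in these stretches, and those that rose have 19, 32 and 0. DNA methylation was not measured in these libraries.

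EpiLC identity was checked with 6 marker genes. Pou5f1 (OCT4), required in all pluripotent states, had 18550 and 17082 in wild-type and 17743 and 18108 in TKO EpiLCs (log2 fold change 0.04, SE 0.42, adjusted p = 0.979), so that the groups overlapped. Fgf5, a marker of the post-implantation epiblast, had 1839 and 2354 in wild-type and 2697 and 1666 in TKO EpiLCs (log2 fold change 0.08, SE 0.45, adjusted p = 0.946). Otx2, a driver of the formative state, had 1158 and 1718 in wild-type and 1833 and 3579 in TKO EpiLCs (log2 fold change 0.94, SE 0.83, adjusted p = 0.513). Each of the 6 markers was transcribed in all 4 libraries. Among them Sox2 was higher (1311 and 604 in wild-type and 1601 and 2733 in TKO EpiLCs, log2 fold change 1.23, SE 0.30, adjusted p = 0.0187), and Pou3f1 (OCT6), a formative factor, was lower (7231 and 5424 in wild-type and 2953 and 2188 in TKO EpiLCs, log2 fold change −1.27, SE 0.28, adjusted p = 0.0101). Dnmt3b, the sixth, was lower as given above.

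Of 14 core pluripotency genes 2 were higher (Sox2 and the Nodal coreceptor Tdgf1) and 1 lower (Lin28b), and the list had a median log2 fold change of 0.05, and −0.0043 to 0.15 without single libraries. Tdgf1 had 3785 and 3296 in wild-type and 5779 and 9055 in TKO EpiLCs (log2 fold change 1.10, SE 0.32, adjusted p = 0.037). Without TKO replicate 2 the values were 0.78 (adjusted p = 0.188) for Sox2, 0.73 (adjusted p = 0.266) for Tdgf1 and −0.63 (adjusted p = 0.173) for Lin28b. All 3 calls were lost without wild-type replicate 2 as well, that of Tdgf1 also without wild-type replicate 1 and that of Lin28b also without TKO replicate 1.

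Of 19 tested naive pluripotency genes 6 were higher and 0 lower by adjusted p in TKO EpiLCs, and 4 of these 6 did not hold without TKO replicate 2. The list had a median of 1.13, and 18 of 19 members with or without a call, or 12 of 19 without TKO replicate 2, had a log2 fold change above 0. Klf5, a Krüppel-like factor of the naive network, had 299 and 141 in wild-type and 1221 and 1412 in TKO EpiLCs (log2 fold change 2.65, SE 0.30, adjusted p = 0.000161). Both TKO replicates were well above wild-type. Prdm14, which represses de novo methyltransferases and is needed for PGCs, had 3.21 and 0.556 in wild-type and 18.8 and 70.4 in TKO EpiLCs, or 34.9-fold (95% counting interval 11.5 to 173, adjusted p = 0.000953) from 3 counts in wild-type. These 2 calls held without each library.
Esrrb, an orphan nuclear receptor, had 228 and 71.7 in wild-type and 239 and 1464 in TKO EpiLCs (log2 fold change 2.62, SE 0.68, adjusted p = 0.0251). TKO replicate 1 was at the level of wild-type replicate 1, and replicate 2 was far above. Nanog had 423 and 359 in wild-type and 665 and 1343 in TKO EpiLCs (log2 fold change 1.40, SE 0.27, adjusted p = 0.00541), Tfcp2l1 214 and 147 in wild-type and 281 and 771 in TKO EpiLCs (log2 fold change 1.60, SE 0.36, adjusted p = 0.0116). The cytokine gene Spp1 had 402 and 245 in wild-type and 592 and 1395 in TKO EpiLCs (log2 fold change 1.67, SE 0.40, adjusted p = 0.0165). Without TKO replicate 2 the log2 fold changes were 0.78 (adjusted p = 0.497) for Esrrb, 0.80 (adjusted p = 0.0712) for Nanog, 0.69 (adjusted p = 0.183) for Tfcp2l1 and 0.92 (adjusted p = 0.206) for Spp1. The list then had 2 members higher, 1 lower and a median of 0.40. Without wild-type replicate 2, in which these genes were lower than in replicate 1 for 17 of 19, 2 members were higher, Klf5 and Prdm14, and Spp1 was lost without wild-type replicate 1 too. Without TKO replicate 1 there were 12. Zfp42 (REX1), Klf2 and Klf4 had log2 fold changes of 0.81 (adjusted p = 0.0925), 1.40 (adjusted p = 0.0917) and 0.81 (adjusted p = 0.268).

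Of 24 tested formative and primed genes 1 was higher and 5 lower, with a median of −0.52, and −0.51 to −0.28 without single libraries. Pim2, an X-linked kinase gene, had 9726 and 8660.1 in wild-type and 2707 and 1311 in TKO EpiLCs (log2 fold change −2.16, SE 0.37, adjusted p = 0.0021). Sox4 had 2855 and 3284 in wild-type and 986 and 988 in TKO EpiLCs (log2 fold change −1.61, SE 0.32, adjusted p = 0.00617), and its relative Sox3, a factor of the primed epiblast and neural cells, 744 and 859 in wild-type and 381 and 129 in TKO EpiLCs (log2 fold change −1.63, SE 0.37, adjusted p = 0.0134). Pou3f1 and Dnmt3b were the other 2 lower genes. Tcf15, linked to the exit from the naive state, was higher with 771 and 359 in wild-type and 824 and 2070.4 in TKO EpiLCs (log2 fold change 1.41, SE 0.40, adjusted p = 0.0343). The adjusted p of Pim2 held without each library, and its log2 fold change was −1.74 (adjusted p = 0.0256) without TKO replicate 2. Sox4 lost the call without wild-type replicate 2, Pou3f1 without wild-type replicate 1 or TKO replicate 2 (−1.07, adjusted p = 0.0929), Sox3 without each library but TKO replicate 1 (−1.05, adjusted p = 0.0774, without TKO replicate 2), and Tcf15 without wild-type replicate 2 or TKO replicate 2 (0.59, adjusted p = 0.426). Without wild-type replicate 2 the list had 0 higher and 2 lower, and without TKO replicate 2 it had 0 higher and 3 lower.

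**Figure D2:**
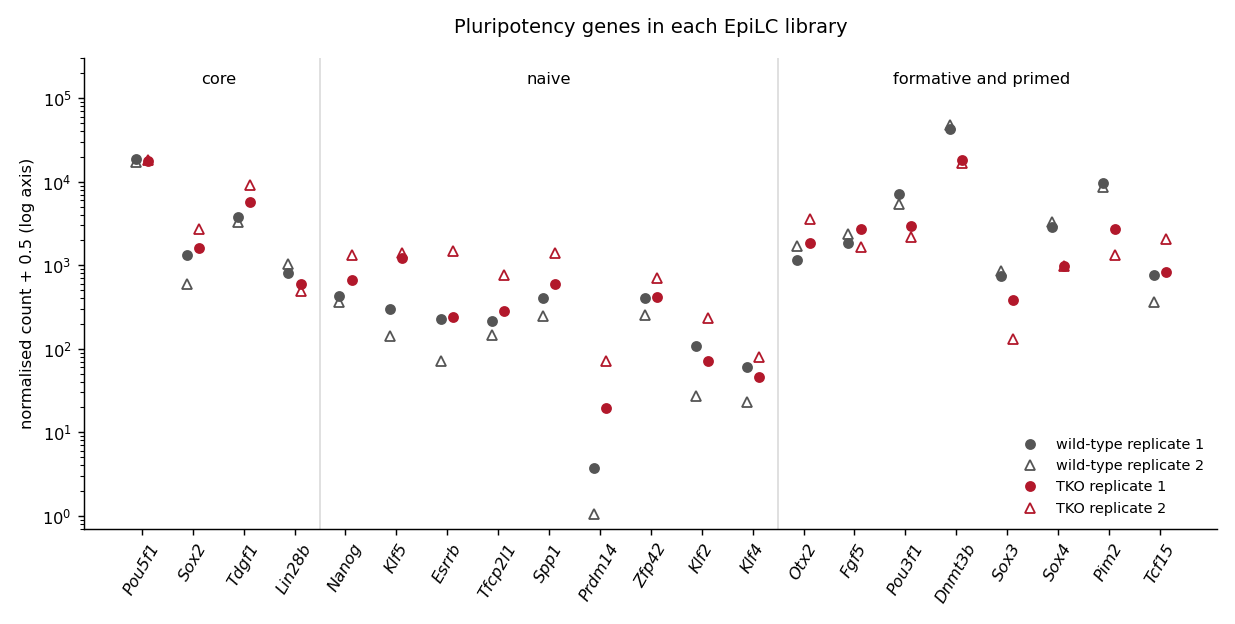
Normalised counts plus 0.5 (y axis, log scale) of 21 core, naive, formative and primed pluripotency genes (x axis) in each EpiLC library, wild-type in grey and TKO in red, circles for replicate 1 and triangles for replicate 2. Klf5 is high in both TKO libraries, while Esrrb is raised in TKO replicate 2 (1464) but not in TKO replicate 1 (239), against 228 and 71.7 in wild-type.

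Signalling genes were then compared, since EpiLCs are held by activin and FGF while LIF supports naive cells. Of 13 tested genes of the LIF pathway 6 were higher and 0 lower (median 0.81, and 0.54 to 1.03 without single libraries). Il6st, the shared receptor subunit gp130, had 254 and 261 in wild-type and 497 and 765 in TKO EpiLCs (log2 fold change 1.32, SE 0.21, adjusted p = 0.00125), and Lifr, its partner, 345 and 251 in wild-type and 422 and 1368 in TKO EpiLCs (log2 fold change 1.63, SE 0.44, adjusted p = 0.028). Without TKO replicate 2 the list had 2 members higher, Lifr was at 0.54 (adjusted p = 0.46) and Il6st at 0.97 (adjusted p = 0.0122). It had 3 without wild-type replicate 1 and 2 without wild-type replicate 2, and Lifr lost its call in both. Of 21 FGF and ERK feedback genes 6 were higher and 0 lower (median 0.38), among them the ERK inhibitors Spry2 (log2 1.06) and Spry4 (log2 1.25) and the early gene Ier3 (40.2 and 50.6 in wild-type and 110.1 and 398 in TKO EpiLCs, log2 fold change 2.49, SE 0.59, adjusted p = 0.0155). None of these 6 held without each library in turn, and the count was 0 without either wild-type library, 3 without TKO replicate 1 and 1 without TKO replicate 2. With RLE factors it was 2, and with a replicate block 3.

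Of 16 Nodal pathway genes 4 were higher and 0 lower (median 0.17, and 0.0904 to 0.19 without single libraries). Furin, a protease that matures Nodal, had 246 and 304 in wild-type and 979 and 838 in TKO EpiLCs (log2 fold change 1.74, SE 0.16, adjusted p = 3.41e-05), and this call held without each library. The list had 1 higher gene without either wild-type library or TKO replicate 2. Wnt targets gave 3 higher and 1 lower of 20 (median 0.28, and −0.00163 to 0.46 without single libraries). Axin2, a feedback inhibitor of Wnt signalling, had 138 and 123 in wild-type and 556 and 584 in TKO EpiLCs (log2 fold change 2.16, SE 0.55, adjusted p = 0.0211), and Ccnd1 (cyclin D1) moved the opposite way, with 5539 and 4303 in wild-type and 1215 and 1465 in TKO EpiLCs (log2 fold change −1.84, SE 0.28, adjusted p = 0.0012). The Ccnd1 call held without each library, that of Axin2 without TKO replicate 1 alone, and 0 Wnt targets were higher without either wild-type library, 2 without TKO replicate 1, where the median was near 0, and 1 without TKO replicate 2. In the BMP pathway 2 of 18 genes were higher and 1 lower (median 0.57, and 0.28 to 0.50 without single libraries). Id3, a direct BMP target, had 284 and 267 in wild-type and 21.8 and 55.0 in TKO EpiLCs (log2 fold change −2.82, SE 0.73, adjusted p = 0.0237), and the BMP antagonist Chrd 40.2 and 50.03 in wild-type and 175 and 161 in TKO EpiLCs (log2 fold change 1.90, SE 0.37, adjusted p = 0.00538). Id3 lost the call without each single library, so that 0 members were lower, and Chrd without wild-type replicate 1, where 0 were higher. The median was lowest without wild-type replicate 2.

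Germline genes were examined because these EpiLCs are the starting cells of PGC-like cells. Of 17 early PGC genes 6 were higher and 1 lower (median 0.72, and 0.39 to 0.76 without single libraries). Tfap2c (AP2γ), a PGC determinant, had 19.3 and 21.1 in wild-type and 45.6 and 57.2 in TKO EpiLCs (log2 fold change 1.34, SE 0.32, adjusted p = 0.0165), and its paralogue Tfap2a 11.2 and 13.9 in wild-type and 56.5 and 48.4 in TKO EpiLCs (log2 fold change 2.03, SE 0.40, adjusted p = 0.00506). Both TKO libraries exceeded both wild-type libraries at levels that stayed low. The membrane protein gene Ifitm3 had 598 and 558 in wild-type and 1574 and 798 in TKO EpiLCs (log2 fold change 1.07, SE 0.29, adjusted p = 0.0309), with replicate 1 the higher. Dppa3, a PGC marker that naive cells also express, had 45.0 and 36.7 in wild-type and 5.95 and 22.0 in TKO EpiLCs (log2 fold change −1.51, SE 0.51, adjusted p = 0.0723). The log2 fold change of Dppa3 was −2.71 without TKO replicate 2 and −0.83 without TKO replicate 1. Prdm14, also on this list, and Rhox5, the lower gene, were described above and were the 2 whose call held without each library. Without TKO replicate 2 Tfap2c was at 1.17 (adjusted p = 0.103) and Tfap2a at 2.13 (adjusted p = 0.0165). Calls were also lost without wild-type replicate 2 for Tfap2c, Tfap2a and Ifitm3, without wild-type replicate 1 for Tfap2c and Ifitm3, and without TKO replicate 1 for Ifitm3. The number higher was 1 without wild-type replicate 2 and 3 without wild-type replicate 1.

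Of 44 tested germline genes that are known for methylated promoters in somatic cells 14 were higher and 2 lower (median 0.47, and 0.21 to 0.66 without single libraries). Tuba3a, a testis tubulin, had 459 and 372 in wild-type and 2386 and 3126 in TKO EpiLCs (log2 fold change 2.77, SE 0.28, adjusted p = 6.87e-05). Brdt, a bromodomain protein of spermatocytes, had 9.64 and 13.3 in wild-type and 76.4 and 72.6 in TKO EpiLCs (log2 fold change 2.66, SE 0.43, adjusted p = 0.00162). Piwil2, a PIWI protein of the piRNA pathway, had 156 and 143 in wild-type and 446 and 468 in TKO EpiLCs (log2 fold change 1.65, SE 0.27, adjusted p = 0.00162). For all of them TKO libraries were above wild-type without overlap, which also holds for nearly all genes called. Mael (log2 1.42), Ddx4 (log2 1.24) and Taf7l (log2 1.73), a piRNA factor, a germ cell helicase and an X-linked TFIID subunit, also rose. In contrast Fkbp6 fell from 86.7 and 87.8 to 5.95 and 9.90 (log2 fold change −3.42, SE 0.60, adjusted p = 0.00315). Piwil4, the nuclear PIWI protein, had 36.9 and 20.6 in wild-type and 1.98 and 0 in TKO EpiLCs, or lower by 23.8-fold (95% counting interval 6.30 to 201, adjusted p = 0.0117) from 2 counts in TKO. Dazl, named after its values were seen, had 81.9 and 93.9 in wild-type and 100.2 and 156 in TKO EpiLCs (log2 fold change 0.56, SE 0.48, adjusted p = 0.503). Of the 16 calls, 5 held without each library (Tuba3a, Brdt, Piwil2, Zcwpw1 and Fkbp6), and 8 members were higher and 1 lower without TKO replicate 2. The median was lowest without TKO replicate 2. The number higher was 5 without wild-type replicate 1 and 7 without wild-type replicate 2. Mael, Ddx4, Taf7l and Piwil4 lost the call without wild-type replicate 1, Mael and Piwil4 without TKO replicate 2, Ddx4 and Taf7l without TKO replicate 1, and Taf7l without wild-type replicate 2.

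Imprinted genes are transcribed from 1 parental allele under the control of inherited methylation. Of 57 tested, 3 were higher and 3 lower by adjusted p, with a median of 0.01, and −0.18 to 0 without single libraries. By adjusted p alone 7.57% of all tested genes were higher and 3.18% lower. The same 3 and 3 were also beyond the log2 limit of 2, so that all were called. Of all tested genes 2.31% were called in either direction. Peg10 and its neighbour Sgce on chromosome 6, which share an imprinted control region, both rose, Sgce from 20.9 and 19.5 to 89.3 and 153 (log2 fold change 2.62, SE 0.40, adjusted p = 0.0012). Rasgrf1 had 0 counts in both wild-type libraries and 13.9 and 3.30 normalised counts in TKO, at least 7.16-fold higher (17 counts against a floor of 3 over the group, adjusted p = 0.028). Besides Mest and Dcn, Magel2 was lower, with 38.6 and 36.1 in wild-type and 9.92 and 0 in TKO EpiLCs (log2 fold change −2.80, SE 0.75, adjusted p = 0.0278). Mest, Dcn, Peg10 and Sgce held without each library. Magel2 held without TKO replicate 1 alone and Rasgrf1 without TKO replicate 2 alone.

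The 2-cell-like state is one that few cells of a pluripotent culture enter. Of 19 tested genes of this state 7 were lower and 0 higher, and the median log2 fold change was −1.62, or −1.40 with the genes that had 0 counts in a group set to their bound. Without single libraries the fitted median ranged from −5.25 to −0.95, at its ends without TKO replicate 2 and wild-type replicate 2. All 7 were sparse in wild-type EpiLCs. Zscan4d had 20.9 and 16.1 in wild-type and 0 counts in both TKO libraries, at least 11.1-fold lower (adjusted p = 0.0042). Zscan4a had 16.1 and 11.1 in wild-type and 0 and 2.20 in TKO EpiLCs, Tmem92 12.9 and 5.003 in wild-type and 0 and 0 in TKO EpiLCs and Gm8300 8.03 and 2.78 in wild-type and 0 and 0 in TKO EpiLCs. Zscan4d and Usp17le alone held without each library, and the number lower was 3 without wild-type replicate 1, 4 without wild-type replicate 2, 2 without TKO replicate 1 and 3 without TKO replicate 2. A model of the 4 EpiLC libraries also gave 2. In bulk libraries fewer cells in this state and less RNA per cell cannot be told apart. Reads of near-identical copies, as in the Zscan4 cluster, are uncertain, and the same holds for Gm21761, Tuba3a, Ddx3y with its X-linked copy, H2-D1, H2-Q5 and Hspa1a.

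Lineage markers were used to look for other cell types. Of 21 primitive streak and mesoderm genes 3 were higher and 0 lower (median 1.004, or 0.77 with genes at 0 counts in a group set to their bound). Eomes, a T-box factor of the streak and of trophoblast, had 89.96 and 92.3 in wild-type and 696 and 606 in TKO EpiLCs (log2 fold change 2.86, SE 0.34, adjusted p = 0.000216). Hand1 had 3.21 and 0 in wild-type and 41.7 and 29.7 in TKO EpiLCs, or 43.6-fold (95% counting interval 11.6 to 367, adjusted p = 0.00407) from 2 counts in wild-type, and Cdx2 4.82 and 1.67 in wild-type and 57.5 and 11.0 in TKO EpiLCs (log2 fold change 3.66, SE 1.12, adjusted p = 0.0494), with replicate 1 the higher. Of 23 endoderm genes 5 were higher and 0 lower (median 0.70, or 0.34 with bounds). Without TKO replicate 1 the median of each of these lists was 0. Gata4 had 4.82 and 3.89 in wild-type and 107 and 37.4 in TKO EpiLCs, Gata6 1.61 and 0.556 in wild-type and 8.93 and 27.5 in TKO EpiLCs and Sox17 1.61 and 0.556 in wild-type and 20.8 and 26.4 in TKO EpiLCs. From 2 counts in wild-type each, Gata6 was higher by 21.5-fold (95% counting interval 5.50 to 184, adjusted p = 0.0132) and Sox17 by 28.4-fold (95% counting interval 7.42 to 242, adjusted p = 0.0021). Summed over the lists, mesoderm markers had 396 to 463 normalised counts in wild-type and 913 to 1288 in TKO EpiLCs, and endoderm markers 5536 to 6034 and 4951 to 6346. Of the endoderm list Ttr was at 0 counts in all 4 libraries. Their part in the results was not tested. Eomes and Gata4 held without each library. Hand1 and Sox17 lost the call without wild-type replicate 2, Cdx2 without any library but TKO replicate 2, and Gata6 without any but TKO replicate 1. Without wild-type replicate 2 each list had 1 higher gene, and without wild-type replicate 1 each had 2.

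Of 19 trophoblast genes and simple keratins 9 were higher and 1 lower (median 1.59). Besides Eomes, Cdx2, Hand1, Tfap2a and Tfap2c, which other lists share, Esx1, an X-linked placental homeobox gene, had 14.5 and 5.56 in wild-type and 70.4 and 62.7 in TKO EpiLCs (log2 fold change 2.96, SE 0.51, adjusted p = 0.00229). Krt19 had 41.8 and 35.0 in wild-type and 168 and 156 in TKO EpiLCs (log2 fold change 2.12, SE 0.32, adjusted p = 0.0011). Plac8 was the lower gene. Summed over the list, counts were 1853 to 2035 in wild-type and 3192 to 3765 in TKO EpiLCs. The number higher was 3 without wild-type replicate 2, which ended the call of Esx1, and 7 or 8 without each other library.
Of 26 neural genes 1 was higher and 2 lower (median −0.05, or 0.05 with bounds, and from −0.53 to 0.42 without single libraries). Stmn2 had 490 and 332 in wild-type and 1472 and 1567 in TKO EpiLCs (log2 fold change 1.93, SE 0.29, adjusted p = 0.00115). Nes (nestin) had 1059 and 1415 in wild-type and 432 and 132 in TKO EpiLCs (log2 fold change −2.11, SE 0.42, adjusted p = 0.00607), and Tubb3 was lower by log2 −1.27 (adjusted p = 0.029). Stmn2 held without each library, Nes lost the call without wild-type replicate 2, and Tubb3 without each single library. Fibroblast markers gave 1 higher and 1 lower of 15, the latter being Dcn. Of 30 tested Hox genes 1 was higher, Hoxd4, with 0 counts in wild-type and 10.9 and 9.90 in TKO (at least 8.42-fold higher, adjusted p = 0.00766, lost without wild-type replicate 2). The Hox median of 1.13 was 0.10 with genes at 0 counts in a group set to their bound. The fitted Hox median ranged from 0 without TKO replicate 1 to 2.48 without wild-type replicate 1. Of 28 Polycomb genes, which encode repressors of Hox and other developmental genes, 4 were higher and 1 lower (median 0.10, and 0.0271 to 0.10 without single libraries). Phf19 rose (log2 fold change 1.87, SE 0.32, adjusted p = 0.00219) and Ezh2, the methyltransferase, fell (log2 fold change −0.55, SE 0.16, adjusted p = 0.0357). Phf19 lost the call without wild-type replicate 2, and Ezh2 without any library but TKO replicate 2. The list had 0 higher genes without wild-type replicate 2 and 1 without wild-type replicate 1.

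**Figure D3:**
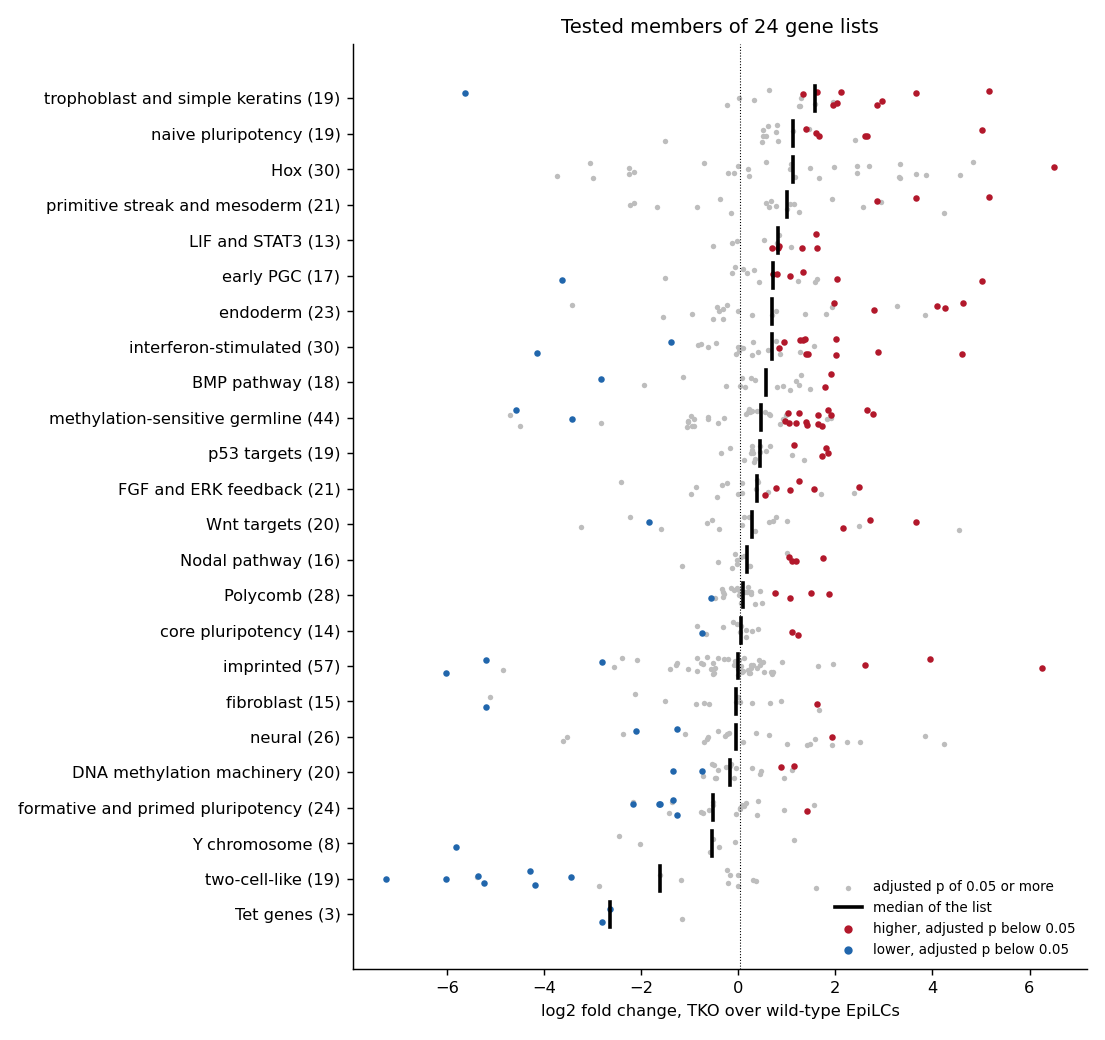
Fitted log2 fold change in TKO over wild-type EpiLCs (x axis) of the tested members of each gene list (y axis, number tested in parentheses), with members higher by adjusted p in red, lower in blue and the others grey; black bars are list medians and the dotted line is the median of all tested genes (0.04). With all 4 libraries the trophoblast list has the highest median (1.59) and the Tet genes and 2-cell-like genes the lowest. The highest is that of the naive list without TKO replicate 1 (1.78) and of the Hox list without wild-type replicate 1 (2.48).

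Immune genes were part of the changes. Of 30 tested interferon-stimulated genes 11 were higher and 2 lower (median 0.69, and 0.29 to 1.03 without single libraries). Besides Samd9l, H2-D1, a class I histocompatibility gene, had 49.8 and 67.3 in wild-type and 257 and 213 in TKO EpiLCs (log2 fold change 2.01, SE 0.33, adjusted p = 0.00173). Xaf1, a proapoptotic gene, had 11.2 and 16.1 in wild-type and 44.6 and 164 in TKO EpiLCs (log2 fold change 2.87, SE 0.56, adjusted p = 0.00481). The chemokine gene Cxcl10 moved the opposite way, with 12.9 and 10.6 in wild-type and 0 and 1.10 in TKO EpiLCs, lower by 21.4-fold (95% counting interval 3.52 to 875, adjusted p = 0.0235) from 1 count in TKO, and lost the call without each single library. TKO replicate 2 was above replicate 1 for 23 of the 30 genes. The median was 0.42 without TKO replicate 2 and lowest without wild-type replicate 1. Samd9l and H2-D1 alone held without each library, and the number higher was 2 without TKO replicate 2, where Xaf1 was at 1.65 (adjusted p = 0.0685), 3 without wild-type replicate 1, 2 without wild-type replicate 2 and 10 without TKO replicate 1. Of 19 targets of p53 4 were higher and 0 lower (median 0.45). Cdkn1a, a cell cycle inhibitor, had 286 and 277 in wild-type and 1421 and 518 in TKO EpiLCs (log2 fold change 1.81, SE 0.36, adjusted p = 0.00565), and the X-linked Eda2r 390.4 and 469.7 in wild-type and 1801 and 1017 in TKO EpiLCs (log2 fold change 1.73, SE 0.29, adjusted p = 0.00212). Here TKO replicate 1 was the higher. Eda2r held without each library and Cdkn1a without TKO replicate 2 alone, and without either wild-type library 1 member was higher. TKO replicate 2 was above replicate 1 for 3 of the 19 targets. Without TKO replicate 1 the list had 2 higher, 1 lower and a median of 0.01, and without TKO replicate 2 it had 6 higher and a median of 0.70.

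The genotype difference was also laid out along the chromosomes, as a description with no test. For 16496 tested genes with a position (mm10), median log2 fold changes lay between −0.03 and 0.09 on every autosome but chromosome 14. Chromosome 14 had a median of 0.26 over 577 genes and chromosome X of 0.56 over 620. Within X the shift began at about 70 Mb, a boundary set after the values were seen. The 406 genes from there to the end had a median of 0.84, with 84.5% above the median of all genes. The 214 genes before it had a median of −0.16, with 38.8% above. In windows of 10 Mb with at least 20 tested genes the medians were 0.78 to 1.14 in the 7 windows of distal X and −0.30 to 0.14 in the 6 of proximal X.
Of 234 such windows over all chromosomes, a look added after the data were seen, 12 had a median above 0.5, and all 12 were on distal X or chromosome 14. The highest elsewhere was 0.45, on chromosome 6 from 0 to 10 Mb, where 7 of 30 tested genes were called higher. Samd9l and Peg10, described above, lie in this window. The part of the window in their differences was not tested. On chromosome 14 the 190 genes from 65 Mb onward had a median of 0.75, and the 387 before it 0.08, although the window from 0 to 10 Mb, at 0.65, was among the 12.
Each TKO library showed the shift by itself. Relative to the mean of the wild-type libraries, distal X was at 0.79 and 0.84 in TKO replicates 1 and 2, and distal chromosome 14 at 0.75 and 0.68, while the wild-type libraries lay 0.03 to either side of their mean in both regions. The same regions were raised in the libraries labelled TKO of aggregates without cytokines, which are separate from these. There the medians of distal X were 0.66 at day 2 and 0.84 at day 6, and those of distal chromosome 14 0.53 and 0.56. Distal X held 23 of the 284 genes called higher and 1 of the 99 called lower, and proximal X 2 and 9. Among genes with a position, 244 higher and 96 lower calls lay outside distal X and chromosome 14. Genes described above that lie on distal X or chromosome 14 include Gabrq, Eda2r, Taf7l and Esx1 on the former and Klf5, Otx2, Piwil2, Spry2, Gata4, Scara3 and Ppp3cc on the latter. The latter list is of the whole of chromosome 14, and not all of its genes lie beyond 65 Mb. Gata4 starts before that boundary, at 63198914, in the window from 60 to 70 Mb (median 0.56). The part of position in the differences of these genes was not tested.

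**Figure D4:**
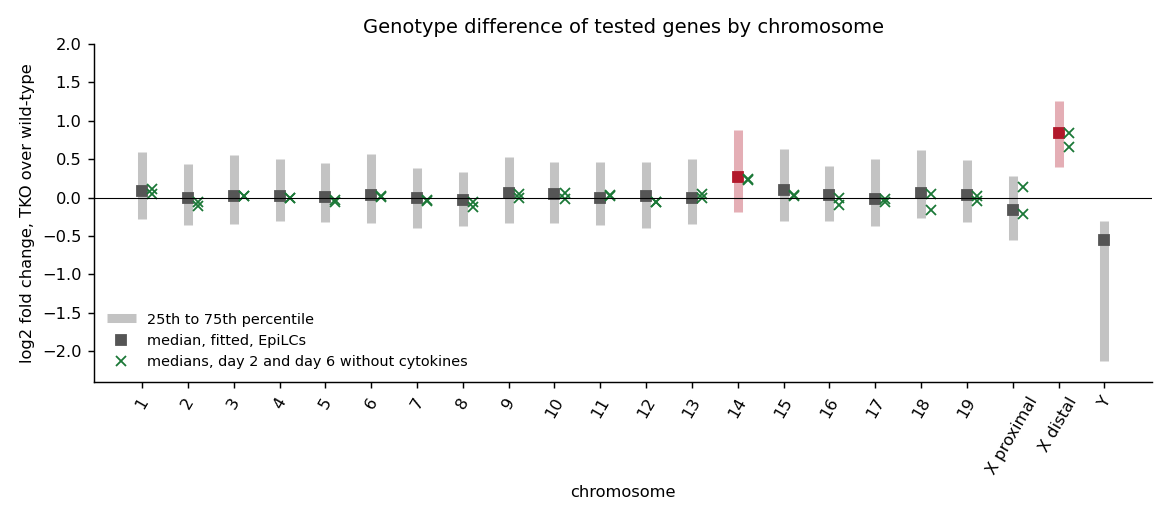
Median log2 fold change in TKO over wild-type EpiLCs (squares) and its 25th to 75th percentile over genes (bars) for each chromosome, with X split at 70 Mb into a proximal and a distal part; green crosses are the medians at day 2 and day 6 without cytokines (not drawn for Y, with 8 genes). Chromosome 14 and distal X, in red, lie at 0.26 and 0.84, and the other autosomes lie near 0.

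Genes called in EpiLCs were last compared with the difference of the libraries labelled TKO from wild-type in aggregates without cytokines at days 2 and 6, which asks whether a difference present at the start lasted. The labels of the later TKO libraries were checked on the Tet genes. At day 2 Tet1 had 2028 and 1754 in wild-type and 1937 and 1200.3 in the libraries labelled TKO (log2 fold change −0.30, adjusted p = 0.491), so that the Tet1 difference of EpiLCs was not seen there, whereas Tet3 had 2558 and 1965 in wild-type and 165 and 238 in the libraries labelled TKO (log2 fold change −3.52, adjusted p = 1.74e-06). Tet2 had 287 and 200.4 in wild-type and 355 and 405 in the libraries labelled TKO (log2 fold change 0.61, adjusted p = 0.301). At day 6 the log2 fold changes were −0.12 for Tet1 (adjusted p = 0.777), −1.78 for Tet2 (0.00303) and −4.23 for Tet3 (7.45e-08). The later libraries are called libraries labelled TKO for this reason, and whether they hold the same cells as the TKO EpiLCs was not tested.
At day 2 1563 genes (9.43% of those tested) were called higher and 511 (3.08%) lower in the libraries labelled TKO. Of the 284 genes higher in EpiLCs 138 were again called higher, which is 48.6% of the EpiLC genes and 8.83% of the day 2 genes, and 6 were called lower. Of the 99 lower in EpiLCs 35 were again lower (35.4% and 6.85%) and 20 were called higher. At day 6, with 2381 genes (14.4%) higher and 1568 (9.46%) lower, 140 of the 284 were again higher and 32 lower, and 32 of the 99 were again lower and 37 higher. Without single EpiLC libraries the number of EpiLC genes again called higher ranged from 39 to 141 at day 2 and from 47 to 148 at day 6, and that again called lower from 16 to 38 and from 12 to 36. The lowest numbers higher were those without wild-type replicate 2 and the lowest numbers lower those without TKO replicate 2. Without wild-type replicate 1 the numbers were 89 and 87 higher and 22 and 18 lower, without wild-type replicate 2 they were 17 and 14 lower, and without TKO replicate 2 they were 86 and 101 higher. The numbers called in the opposite direction ranged from 2 to 4 at day 2 and 9 to 25 at day 6 for genes higher in EpiLCs, and from 8 to 14 and 20 to 27 for those lower.
D2hgdh, Mest and Mgmt stayed lower at both times. The log2 fold changes at day 2 were −4.56 for D2hgdh (adjusted p = 7.31e-07), −4.01 for Mest (6.9e-05) and −2.84 for Mgmt (0.00448). At day 6 they were −3.93 (5.34e-07), −4.32 (1.17e-05) and −1.63 (0.035). Gabrq stayed higher, with log2 fold changes of 6.89 (3.99e-07) and 5.20 (2.29e-07).

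Whether the genotype difference itself changed from EpiLCs to day 2 was tested with an interaction term. It had an adjusted p below 0.05 for 2035 genes (12.3%), of which 1009 moved up and 1026 down, and for 114 of the 383 genes called in EpiLCs, 56 up and 58 down. Since these 383 were chosen by their EpiLC difference, which is part of the term, some return towards 0 is built into this count. Of those 114, the 5 with the largest fitted terms were Gm8300, Zscan4d, Tmem92, Gm12794 and Zscan4a. All but Gm12794 are on the 2-cell-like list. Gm8300, Zscan4d and Tmem92 were at 0 counts in both TKO EpiLC libraries. The size and order of their terms therefore depend on the small prior count added in the fit. Zscan4d, at 0 counts in TKO EpiLCs, had 5.85 and 11.7 in wild-type and 120.4 and 129 in the libraries labelled TKO at day 2, an interaction of 10.99 (SE 1.21, adjusted p = 0.000102) on the log2 scale. Gm12794 had 9.64 and 7.23 in wild-type and 0 and 1.10 in TKO EpiLCs and at day 2 2.92 and 0 in wild-type and 145 and 153 in the libraries labelled TKO. The 5 smallest fitted terms were those of Eva1c, Il10rb, Gal, Rhobtb1 and Sox17, all sparse in wild-type EpiLCs. Those of Eva1c and Il10rb, at 0 counts in both wild-type EpiLC libraries, depend on the prior count as well. Eva1c was at 0 counts in 3 of the 4 EpiLC libraries and had 18.8 in TKO replicate 1, so that its call in EpiLCs rests on 1 library. Il10rb, an interleukin-10 receptor subunit, had 0 counts in wild-type and 9.92 and 7.70 in TKO EpiLCs, and at day 2 32.2 and 21.8 in wild-type and 37.4 and 27.6 in the libraries labelled TKO. Rhobtb1 had 1.61 and 11.7 in wild-type and 37.7 and 40.7 in TKO EpiLCs, and at day 2 158 and 110.3 in wild-type and 17.6 and 12.0 in the libraries labelled TKO. Gal, the neuropeptide galanin, had 0 and 1.11 in wild-type and 33.7 and 17.6 in TKO EpiLCs, and at day 2 11.7 and 15.5 in wild-type and 9.34 and 7.21 in the libraries labelled TKO. The EpiLC calls of these genes were lost without wild-type replicate 1 for Rhobtb1 and without wild-type replicate 2 for Il10rb and Sox17. They were lost without any library but TKO replicate 2 for Eva1c and Gal, and without any but wild-type replicate 2 for Tmem92. Gm12794, Zscan4a and Gm8300 lost the call without each single library, while Zscan4d kept it without each.
The Rhox5 difference turned from lower to higher, with 15.6 and 23.3 in wild-type and 77.8 and 141 in the libraries labelled TKO at day 2 (log2 fold change 2.42, adjusted p = 0.000104). Wild-type had fallen from 904 and 1159.6 in EpiLCs, while TKO EpiLCs had 84.3 and 79.2. Ddx3y stayed lower in the libraries labelled TKO but by less, with 422 and 571 in wild-type and 59.2 and 112 in the libraries labelled TKO and an interaction of 3.23 (SE 0.57, adjusted p = 0.00186). The naive genes Zfp42 and Tfcp2l1 differed more at day 2 than in EpiLCs, by 4.60 (SE 0.44, adjusted p = 1.79e-05) and 3.41 (SE 0.51, adjusted p = 0.000529).

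**Figure D5:**
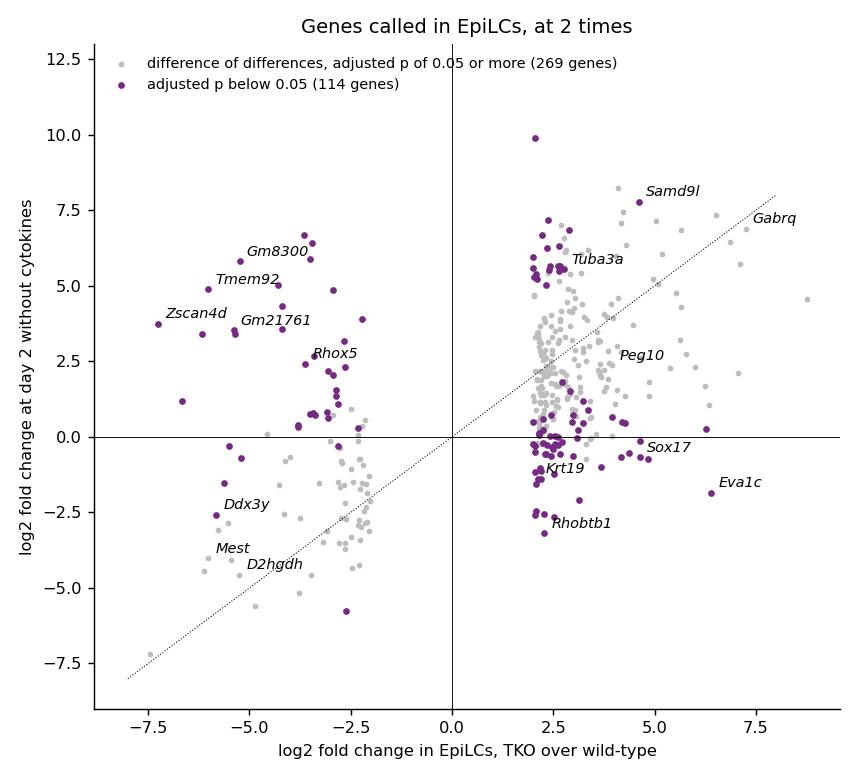
Log2 fold change in TKO over wild-type EpiLCs (x axis) and at day 2 without cytokines (y axis) for the 383 genes called in EpiLCs. Purple points are the 114 genes whose difference changed between the times by adjusted p, and the dotted line marks equal values. Zscan4d, Gm8300 and Tmem92 lie in the upper left. In the lower left D2hgdh lies near the line and Mest (−6.01 in EpiLCs and −4.01 at day 2) above it.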

How the data were processed

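RNA of wild-type and TKO cells was depleted of rRNA and sequenced as read pairs by the authors. Per the labels and the submitters' processing notes, reads were trimmed with Trim Galore 0.5.0 and cutadapt 1.16, aligned to mm10 with STAR 2.7.1a and counted per gene with Subread 1.5.2 without strand, so antisense partners cannot be told apart. The deposited values are raw fragment counts, not normalised; 33 rows with no gene were left out. Counts were normalised here with DESeq2 1.42.0 size factors for levels and with TMM factors for tests. Genes passing filterByExpr (16582 of 25239) were tested with edgeR 4.0.16 (R 4.3.3), quasi-likelihood, in 1 model of 9 groups and 18 libraries (9 residual degrees of freedom), with Benjamini-Hochberg adjustment. Standard errors (SE) were taken as the size of a log2 fold change over the root of its F statistic. A group at 0 counts was set to 3 counts over its libraries for a lower bound, and 95% counting intervals (Clopper-Pearson) cover counting error only. Named genes are the Tet genes, list members, the 15 highest and 15 lowest called genes with a mean of 50 or more and no overlap, and 5 interaction genes each way. Dazl, Eif2s3y, Uty and the promoters shown were chosen after their values were seen. The genes and lists were chosen with earlier results of these data known. The study calls its replicates biological, while the labels do not say that they are separate cultures, and p-values measure the spread between these samples. Replicates 1 and 2 differed by far more than counting noise in both genotypes. The test was run on simulated data, with changes put only into genes above 50 expected counts and 1 spread for all genes. That run therefore does not cover sparse genes or the spread between these replicates. Alternatives were other normalisations, filters, thresholds, a replicate block, DESeq2, smaller models and leaving out each EpiLC library. List counts without single libraries or with other factors, windows beyond chromosome X, and later overlaps without single libraries were chosen after seeing the data. A member of the methylation list is not reported here.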

Additional observations from a re-analysis of the deposited data

Results flagged for a closer look

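The following genes were singled out because their genotype difference, TKO minus wild-type, itself differed between day 2 without cytokines and EpiLCs by edgeR's interaction term (adjusted p below 0.05). Values are the day 2 difference minus the EpiLC difference on the log2 scale. Tet1 stood at 2.52. Among pluripotency genes and their regulators the difference moved up for Dnmt3l (3.70), Tdgf1 (4.50), Esrrb (3.02), Tfcp2l1 (3.41), Spp1 (2.13), Klf2 (2.88), Klf4 (2.58), Zfp42 (4.60) and Tcf15 (3.09), and down for Lin28b (−1.25), Sox3 (−1.87) and Sox4 (−1.59). For germline genes the difference moved up: Tfap2c (3.79), Tfap2a (3.25), Dppa3 (6.01), Ifitm3 (1.38), Rhox5 (6.05), Tuba3a (2.79), Piwil2 (2.69975), Fkbp6 (4.22), Ddx4 (1.63), Mael (3.42), Taf7l (8.75), Dazl (4.25) and Usp26 (4.26). Such a term does not tell a rise in TKO from a fall in wild-type. For Rhox5, Fkbp6 and Usp26 the wild-type level fell by day 2 and the TKO level changed less. Fkbp6 went from 86.7 and 87.8 to 1.95 and 4.66 in wild-type. In TKO EpiLCs it had 5.95 and 9.90, and in the libraries labelled TKO at day 2 5.19 and 7.21. Genes at or near 0 counts in TKO EpiLCs, whose fitted terms depend on the prior count, were Zscan4d (10.99), Zscan4a (9.85), Tmem92 (10.91), Gm8300 (11.05), Gm12794 (10.32), Gm21761 (8.92), Dcn (4.49) and Plac8 (4.11). Genes near 0 counts in wild-type EpiLCs were Eva1c (−8.23), Il10rb (−6.02), Gal (−5.59), Sox17 (−5.31) and Gata6 (−3.80).

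Of the other genes with such a term, these were raised in TKO EpiLCs and had a smaller or reversed difference at day 2: Sgce (−2.89), Ier3 (−2.90), Axin2 (−3.21), Furin (−1.47), Chrd (−2.08), Krt19 (−3.51), H2-D1 (−2.25), Stmn2 (−1.65), Ppp3cc (−2.45) and Rhobtb1 (−5.46). The interferon-responsive genes Samd9l (3.16) and Xaf1 (3.98) had a larger one. Ddx3y (3.23), Irgm1 (4.11) and Gpx2 (3.92) were less far below wild-type at day 2, or no longer below it. At day 2 the libraries are labelled TKO although their Tet1 difference from wild-type did not pass the test.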

How the results depend on the processing

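Of 383 genes called, 284 higher and 99 lower, the total was 229 (175 and 54) with a filter at a mean CPM (counts scaled to library size) of 1, 609 with 531 higher by library size alone, 1127 (881 and 246) with a log2 limit of 1, 1783 (1255 and 528) with none, 168 (125 and 43) at an adjusted p below 0.01 and 118 (85 and 33) by glmTreat. Library size alone moved the median of all genes to 0.34. Leaving out 1 EpiLC library gave 168 to 384 calls, 111 to 292 higher and 51 to 92 lower, and 1121 to 1973 genes for the interaction (2035 with all). DESeq2, no filter, RLE factors, TMM without Rn45s and the model of 4 libraries gave 318 to 463. With a replicate block 382 genes were called, 275 higher and 107 lower, and 1996 for the interaction. Deviations of equal replicate numbers correlated at −0.05 between the genotypes, so that the samples share only a number. Of 115 genes named, the block ended 2 calls (Gadd45a and Spry4) and the model of 4 libraries 14. Of 100 named genes with an adjusted p below 0.05, 41 kept it without each EpiLC library and 65 without TKO replicate 2.

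Tet2 passed the threshold with no filter (−1.16) and ranged from −2.24 to −0.54 without single libraries. Directions turned by library size alone for Dnmt1 (0.13) and Uty (0.23), and without single libraries for Uty (−0.23 to 0.0868), Fgf5 (−0.30 to 0.38) and Pou5f1 (−0.00216 to 0.0825). The cause was not tested. Eva1c ranged from 0 to 7.36, with 0 counts in both groups without TKO replicate 1, so that its call was lost. The distal X median was 1.15 by library size alone and 0.82 to 0.95 without single libraries; that of proximal X was −0.19 at 100 or more normalised counts, 0.14 by library size alone and −0.20 to −0.14; that of chromosome 14 was 0.21, 0.55 and 0.21 to 0.34. Genotypes were 1.46 times as far apart as replicates, or 1.98 times over the 500 most variable genes. With 2 libraries a group, sparse genes have wide intervals.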
